A study of Mus musculus with 2 samples.

Results

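The genes of the constitutive proteasome were described in mouse mammary basal cells from a pair of libraries. In the group Scramble control the cells carried a scrambled hairpin, and in the group Cdk14-sh a hairpin that targets Cdk14. Members were the genes of the deposited table whose symbol starts with Psma, Psmb, Psmc, Psmd, Psme or Psmg followed by a digit, without the interferon-inducible Psmb8, Psmb9 and Psmb10 and without pseudogenes. The rule found 44 of 15239 genes. They comprise 14 subunits of the core particle, 6 ATPases, 3 further subunits of the base, 8 lid subunits, 5 activator genes, 7 assembly chaperones and Psmc3ip, a meiotic recombination factor that shares only the symbol. Messenger RNA was sequenced from mammary gland labelled as normal, with 1 library in each group, and both libraries were made with a stranded kit. The labels give no strain, age or hairpin sequence, and they disagree on the material: the sample labels name mammary basal cells, the design text a human breast cancer line and the extraction protocol retinas. Since each group held 1 library, differences carry no replicate check and no p-values.

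The proteasome degrades proteins tagged with ubiquitin. Its core particle is a barrel of stacked alpha and beta rings with the proteolytic sites inside, and a regulatory particle caps the barrel. In that cap, a ring of ATPases unfolds the substrate, further base subunits bind ubiquitin, and the lid carries the enzyme that removes the ubiquitin chain. In most cells the subunit genes are controlled together, and the factor Nfe2l1 (Nrf1) raises them when proteasome activity falls short.

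Values are FPKM (fragments scaled to exon length and library total), so levels can be compared between genes per length of annotated exon. The totals behind the values are not given and were inferred from the steps of the values, with the commonest low step taken as 2 reads. So inferred, they were nearly equal, at 10186924 reads in Scramble control and 10177185 in Cdk14-sh. Read numbers and intervals rest on this assumption. A fold is the ratio of FPKM between the libraries, with its 95% interval for counting error alone in parentheses, which compares the libraries and not the conditions. The log2 ratio is that of (FPKM + 1), Cdk14-sh over Scramble control, and understates differences of low genes. Genes whose mean over the libraries was 1 FPKM or more were called measured, which held for 43 members and left out Psmc3ip (0.405 FPKM in Scramble control and 1.00 in Cdk14-sh, from 7.5 and 18.5 reads). Psma8, Psmb11 and Psme3ip1 were not analysed here.

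Cdk14 stood at 2.06 FPKM in Scramble control and 0.713 FPKM in Cdk14-sh. The libraries also differed in markers of cell types. All 6 basal markers were present, with sums of 2560 FPKM in Scramble control and 2036 in Cdk14-sh, and 3 of them were higher in Cdk14-sh. The luminal list (5 of 6 analysed) summed to 1210 and 666 FPKM, with 2 higher. The 4 endothelial markers analysed were all lower in Cdk14-sh, with sums of 128 and 7.49 FPKM. Of the 4 immune markers analysed, 3 were higher, with sums of 56.0 and 229.8 FPKM, and of the 3 fibroblast markers 2 were higher, with sums of 111.5 and 57.8 FPKM. The photoreceptor markers Rcvrn and Sag were not analysed here, and the 2 retina genes that were analysed summed to 3.47 and 1.78 FPKM. Fewer cells of a type and less RNA per cell cannot be told apart in such bulk samples, and the part of these shifts in the values of proteasome genes was not tested.

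Proteasome genes differed little between the libraries. Of the 43 measured members, 38 differed by less than 1.5-fold between the libraries on the log2 scale, against 50.2% of the 12819 measured genes. None was 2-fold or more higher in Cdk14-sh (14.3% of measured genes), and 1, Psme4, was 2-fold or more lower (13.5%). At 1.5-fold, 2 members were higher (25.3%) and 3 were lower (24.5%). The median log2 ratio of the members was 0.16, against 0.02 over measured genes, and 30 of 43 members lay above 0, against 51.4%. Most members are abundant, and abundant genes scattered less. Among the 33 members whose mean reached 20 FPKM, a limit chosen after seeing the data, 31 were within 1.5-fold and 25 lay above 0. Of the 3287 genes at that level, 62.2% were within 1.5-fold and 56.5% were above 0, with a median of 0.11 against 0.17 for the members. After a correction of the log2 ratios for exonic length and GC content, also chosen after seeing the data, the median of the 43 members was 0.04, against 0 over measured genes, with 25 above 0.

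Summed over the 31 subunits of the core, base and lid, the level was 2450.3 FPKM in Scramble control and 2681 in Cdk14-sh, 0.676% and 0.706% of the table's sum. The summed difference between the libraries was therefore small, while single subunits moved by up to 1.53-fold in one direction and 1.39-fold in the other. Of these subunits, 16 were higher in Cdk14-sh beyond counting error, 5 were lower and 10 had intervals that hold 1. The share of all measured genes whose intervals leave out 1 was not computed. Counts of intervals, here and below, therefore have no background to be read against. The order of levels over all 44 members was nearly the same in both libraries (Spearman's rho 0.96 across genes, which share the libraries and their lengths).

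**Figure D1:**
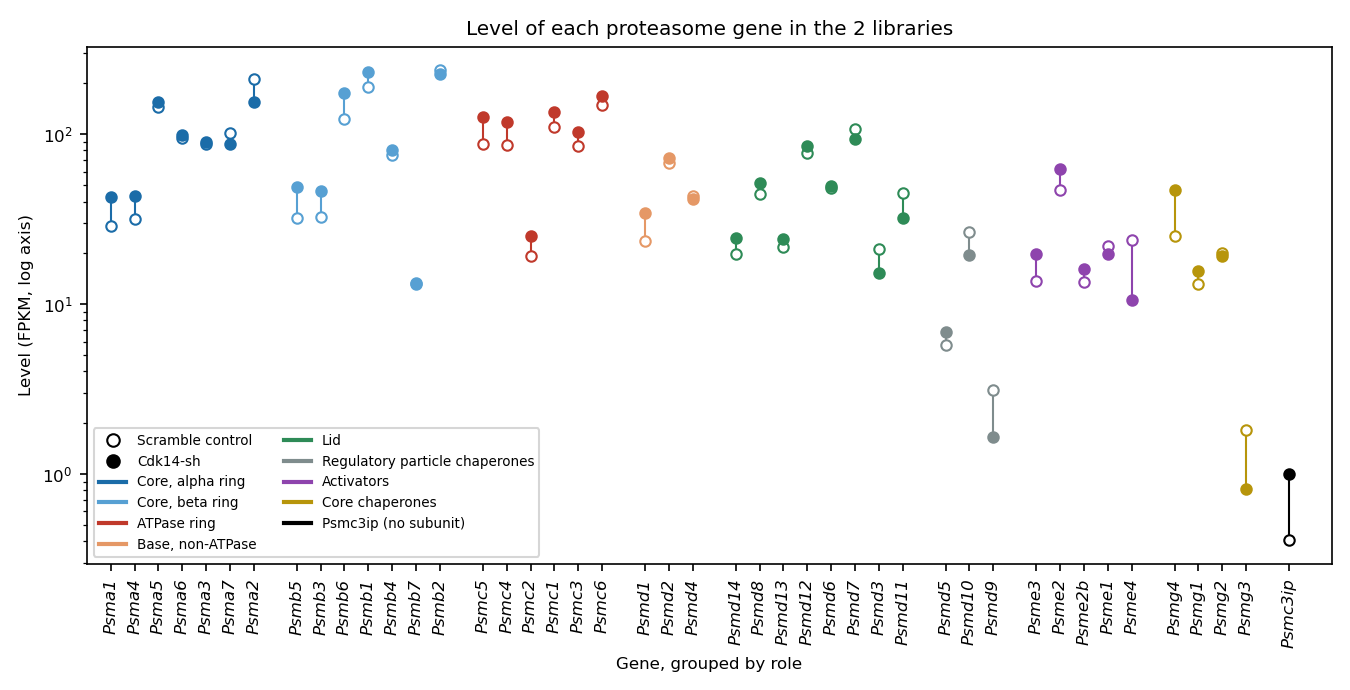
Level of each of the 44 members in FPKM (log axis), grouped by role. Open circles show Scramble control and filled circles Cdk14-sh, joined by a line for each gene. Core subunits run from 13.2 to 236 FPKM in Scramble control, the ATPases all have the filled circle on top, and Psme4, Psmd9 and Psmg3 have the longest downward lines.

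Promoters are shown for the subunit of the core, base and lid with the highest log2 ratio (Psmb5), the one with the lowest (Psmd11), the lowest of all members (Psme4) and Psmc6. Psmc6 was added after the matches were seen, as the ATPase whose window holds both motifs found in Psme4. Capitals mark matches to TGACNNNGC, the core of the element bound by Nfe2l1 and Nfe2l2, or to CCGGAAG, a sequence typical of Ets family sites. Each window runs from 250 bases before to 50 bases after the RefSeq start (GRCm38.p6), on the gene's strand: Psmb5 is at chr14:54617946-54618245 on the minus strand, and on the plus strand are Psmc6 at chr14:45329574-45329873, Psmd11 at chr11:80428365-80428664 and Psme4 at chr11:30771525-30771824.
Psmb5: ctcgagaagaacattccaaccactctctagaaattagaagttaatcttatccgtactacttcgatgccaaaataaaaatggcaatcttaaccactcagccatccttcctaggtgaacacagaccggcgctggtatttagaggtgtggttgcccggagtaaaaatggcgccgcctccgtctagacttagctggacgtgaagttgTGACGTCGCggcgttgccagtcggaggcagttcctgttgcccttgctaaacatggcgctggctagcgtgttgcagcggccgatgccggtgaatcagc
Psmc6: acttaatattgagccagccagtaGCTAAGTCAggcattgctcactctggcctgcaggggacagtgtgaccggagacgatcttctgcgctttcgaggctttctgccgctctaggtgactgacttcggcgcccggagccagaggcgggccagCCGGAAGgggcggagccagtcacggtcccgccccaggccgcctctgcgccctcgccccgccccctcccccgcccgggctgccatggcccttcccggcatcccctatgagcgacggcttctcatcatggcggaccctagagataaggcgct
Psmd11: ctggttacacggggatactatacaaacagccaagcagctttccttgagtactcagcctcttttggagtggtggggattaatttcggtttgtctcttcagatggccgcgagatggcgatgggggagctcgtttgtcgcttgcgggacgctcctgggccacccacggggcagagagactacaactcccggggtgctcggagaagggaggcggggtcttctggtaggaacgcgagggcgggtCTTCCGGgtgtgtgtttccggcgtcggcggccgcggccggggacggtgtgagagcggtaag
Psme4: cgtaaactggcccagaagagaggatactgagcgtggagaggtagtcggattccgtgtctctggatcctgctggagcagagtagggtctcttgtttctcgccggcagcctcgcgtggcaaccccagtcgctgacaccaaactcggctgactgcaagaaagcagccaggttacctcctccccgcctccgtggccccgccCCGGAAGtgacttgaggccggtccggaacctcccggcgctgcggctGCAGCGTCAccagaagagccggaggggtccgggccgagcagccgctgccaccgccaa
In Psmb5 the TGACNNNGC match began 47 bases before the start. In Psmd11 the CCGGAAG match, on the opposite strand, began 11 bases before it. The window of Psme4 held both, a CCGGAAG match 53 bases before the start and a TGACNNNGC match on the opposite strand 7 bases before it, and Psmc6 held both at 100 and 227 bases.

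RefSeq windows were matched by symbol for 37 of the 44 members, with 40 windows in all. Motifs were searched on both strands. CCGGAAG was in 16 of 40 member windows, against 8.86% of all 32851 windows and 19.0% of the 2741 windows of genes whose mean reached 20 FPKM. Counted by gene, it was in 3 of 5 ATPase genes with a window, 4 of 6 lid genes and 1 of 11 core genes. The same count was 2683 of 27025 genes with a window, and 485 of 2169 whose mean reached 20 FPKM. A difference between the subcomplexes was not tested. TGACNNNGC was in 6 of 40 windows (Psmb5, Psmb6, Psmc6, Psmd9, Psmd12 and Psme4), against 12.4% of all windows and 16.4% at that level. CCAAT, the sequence bound by NF-Y, was in 13 of 40, against 37.4% and 38.7%. The heat shock element, searched as its inverted repeat of GAA units, was in none of the 40, against 0.603% of all windows. The motifs can overlap one another, and a match is a description of letters, not a binding site. TGACNNNGC was present both in Psmb5 at the high end and in Psme4 at the low end, and a relation between matches and ratios was not tested.

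The ATPase ring, whose 6 subunits use ATP to unfold substrates and open the gate of the core, was higher in Cdk14-sh in every member. Over all measured genes, 51.4% lay above 0, and 56.5% of those whose mean reached 20 FPKM. Psmc5 was at 87.6 FPKM in Scramble control and 125 FPKM in Cdk14-sh, 1.43-fold higher (1.29 to 1.58). Psmc4 was at 86.4 and 117 FPKM, 1.35-fold higher (1.24 to 1.47), and Psmc2, at a far lower level, at 19.1 and 24.9 FPKM, 1.30-fold higher (1.15 to 1.47). These are the ATPases with the largest ratios, and the highest and lowest of them differ in level but not in direction. Psmc1, the ATPase whose tail opens the core's gate in yeast, was at 110 and 135 FPKM, 1.22-fold higher (1.13 to 1.33). Psmc3 was at 84.5 and 102 FPKM, 1.21-fold higher (1.12 to 1.31). Psmc6, the most abundant ATPase, was at 147 and 166 FPKM, 1.13-fold higher (1.07 to 1.19). All 6 intervals lay above 1, and after the correction for length and GC content all 6 log2 ratios were still above 0, from 0.04 (Psmc3) to 0.44. The median log2 ratio was 0.33, from 0.17 to 0.51, and the summed level was 1.25-fold higher, at 535 and 670.0 FPKM. Psmc5 lies on chromosome 11 (106256154 to 106263120, GRCm38, plus strand). Psmc1 has near-identical copies elsewhere in the genome, of which the one in the table, Gm9575, was at 0.880 and 0.734 FPKM. Of the exonic bases of Psmc3, 8.25% are shared with Slc39a13 on the opposite strand, and no label says if reads were assigned by strand.

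The core particle was mixed. Its 14 genes had a median log2 ratio of 0.10, with 11 above 0, and ranged from -0.43 to 0.60. For comparison, 51.4% of measured genes lay above 0, and 56.5% of those whose mean reached 20 FPKM. Intervals lay above 1 for 6 genes, below 1 for 2, and held 1 for 6. The alpha ring, which forms the gate and the docking surface, had a summed level of 696 FPKM in Scramble control and 671 in Cdk14-sh. The beta ring, which holds the proteolytic sites, had 701 and 819 FPKM, and 6 of its 7 genes lay above 0.

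Within the alpha ring, whose members are all structural, the highest ratios were those of its least abundant genes. Psma1 was at 28.8 FPKM in Scramble control and 42.8 in Cdk14-sh, 1.49-fold higher (1.31 to 1.68). Psma4, whose tail blocks the closed gate in yeast, was at 31.4 and 43.2 FPKM, 1.38-fold higher (1.20 to 1.57). Psma2, the most abundant alpha gene in both libraries, was lower, at 209 and 154 FPKM, 1.35-fold (1.29 to 1.42). Psma7 was also lower, at 101 and 87.3 FPKM, 1.15-fold (1.07 to 1.24). The alpha genes were thus closer together in Cdk14-sh, where the highest was 3.61 times the lowest, than in Scramble control, where it was 7.26 times. The other 3 alpha genes had intervals that hold 1: Psma5 at 144 and 154 FPKM, Psma6 at 94.2 and 99.1, and Psma3 at 87.8 and 89.7. Psma3 and Psma4 have near-identical copies in the table. The Psma3 copy Gm13835, identical over 685 bases, was listed at 41.7 and 35.6 FPKM, and the Psma4 copy Gm6542, 96.8% identical over 783 bases, at 8.52 and 2.04 FPKM, so the values of these genes are uncertain.

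In the beta ring, Psmb5, Psmb6 and Psmb7 encode the catalytic subunits and the other 4 genes structural ones. Psmb5, which carries the chymotrypsin-like site that proteasome inhibitors block, was at 32.0 and 49.0 FPKM, 1.53-fold higher in Cdk14-sh (1.23 to 1.89). Psmb6, with the caspase-like site, was at 123 and 174 FPKM, 1.41-fold higher (1.31 to 1.53). Psmb7, with the trypsin-like site, was at 13.2 FPKM in both libraries, with a fold of 1.00 (0.834 to 1.21). The catalytic genes therefore did not share a ratio: Psmb5 and Psmb6 had intervals above that of Psmb7. Of the structural genes, Psmb3 was 1.43-fold higher (1.25 to 1.63), at 32.5 and 46.4 FPKM, and Psmb1 1.22-fold higher (1.17 to 1.27), at 190 and 231 FPKM. Psmb4, at 74.8 and 80.9 FPKM, and Psmb2, the most abundant member in Scramble control at 236 and 224 FPKM, had intervals that hold 1. Psmb5 (chromosome 14, 54614119 to 54618022, minus strand) is uncertain. Its copy Gm3375, 98.9% identical over 796 bases, was at 22.3 and 28.3 FPKM, and 12.1% of its exonic bases are shared with Mir686. Psmb7 shares 11.8% of its exonic bases with Nek6 on the opposite strand, and its annotated exons cover 3421 bases against 1204 for Psmb2, which bears on the level per length and not on the ratio.

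**Figure D2:**
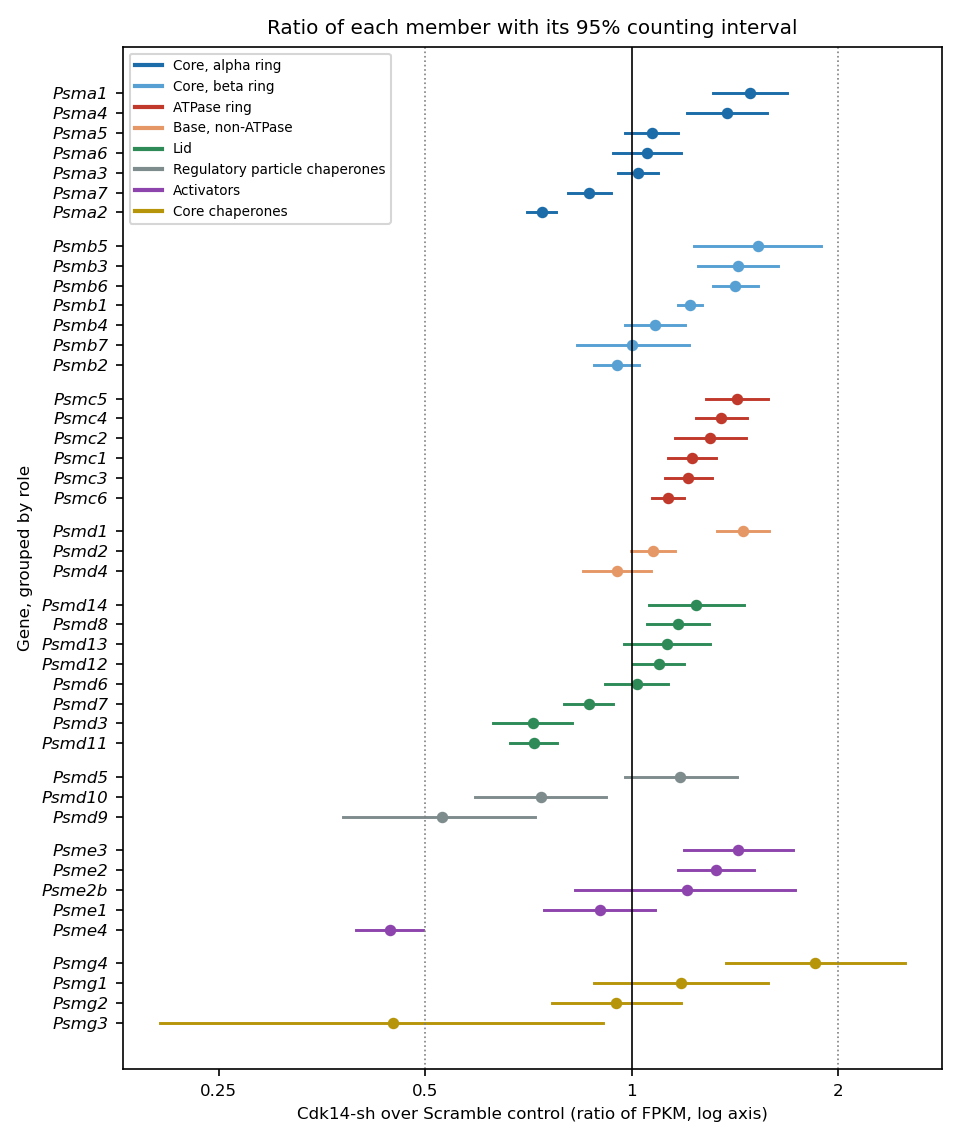
Ratio of FPKM, Cdk14-sh over Scramble control, for the 43 measured members (points, log axis), with 95% intervals for counting error (lines). Solid and dotted vertical lines mark no difference and 2-fold. The 6 ATPases lie to the right of 1 with their whole intervals, the alpha ring and the lid straddle it, and Psme4 is the only member whose whole interval lies past 2-fold lower.

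Lid and base subunits went in both directions. The lid, which holds the deubiquitinating enzyme and locks the cap to the core, had a median log2 ratio of 0.08 over 8 genes. Its ratios ran from -0.46 to 0.30, with 5 above 0 (51.4% of measured genes, and 56.5% of those whose mean reached 20 FPKM). Its summed level was 384 FPKM in Scramble control and 374 in Cdk14-sh. Psmd11, a scaffold subunit that bridges lid and core, was at 44.7 and 32.2 FPKM, 1.39-fold lower in Cdk14-sh (1.28 to 1.51). Psmd3, another scaffold subunit of the lid, was at 21.0 and 15.1 FPKM, also 1.39-fold lower (1.22 to 1.59). Both genes lie on chromosome 11, Psmd11 from 80428615 to 80473248 and Psmd3 from 98682554 to 98695979. On the same chromosome, the lid gene Psmd12 was at 77.4 and 84.8 FPKM, 1.10-fold higher (1.01 to 1.19), so these genes did not share a direction. The log2 ratio of Psmd12 turned from 0.13 to -0.049 after the correction for length and GC content.

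The paired lid subunits Psmd14 and Psmd7, of which Psmd14 is the active deubiquitinase and Psmd7 its inactive partner, stood apart. Psmd14 was at 19.6 and 24.4 FPKM, 1.24-fold higher (1.06 to 1.46). Psmd7 was at 107 and 93.0 FPKM, 1.16-fold lower (1.06 to 1.26). Psmd8, a late-joining lid subunit, was 1.17-fold higher (1.05 to 1.30), at 44.2 and 51.7 FPKM. Psmd6 at 48.4 and 49.2 FPKM and Psmd13 at 21.5 and 24.2 FPKM had intervals that hold 1, and 10.1% of the exonic bases of Psmd13 are shared with Sirt3.

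Among the base subunits without ATPase activity, Psmd1, a large scaffold that binds ubiquitin receptors, was at 23.5 and 34.0 FPKM, 1.45-fold higher (1.33 to 1.58). Of the exonic bases of Psmd1, 4.14% are shared with Gm21972 on the same strand, which was at 20.6 and 10.9 FPKM. The ubiquitin-binding scaffold Psmd2 was at 67.4 and 72.5 FPKM and the ubiquitin receptor Psmd4 at 43.2 and 41.2 FPKM, and both intervals hold 1.

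Set side by side, the median log2 ratio of the core was 0.22 below that of the ATPases and 0.03 above that of the lid. The ATPase median was 0.25 above the lid median. By means, the core (0.18) was 0.21 above the lid (-0.036) and 0.16 below the ATPases (0.34). The core median pools the alpha ring, with a median of 0.07, and the beta ring, with 0.28, against 0.33 for the ATPases. After the correction for length and GC content the lid median was -0.10 and the core median 0.02, while the ATPase median was 0.34, and among members whose mean reached 20 FPKM the core was 0.02 below the lid. The ranges overlapped: 5 of the 14 core genes had a higher ratio than all but 1 ATPase. The lowest ATPase, Psmc6 at 0.17, was above 6 of the 8 lid genes and 8 of the 14 core genes. These are descriptions of the members in a single pair of libraries, and no test of the difference between subcomplexes was made.

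**Figure D3:**
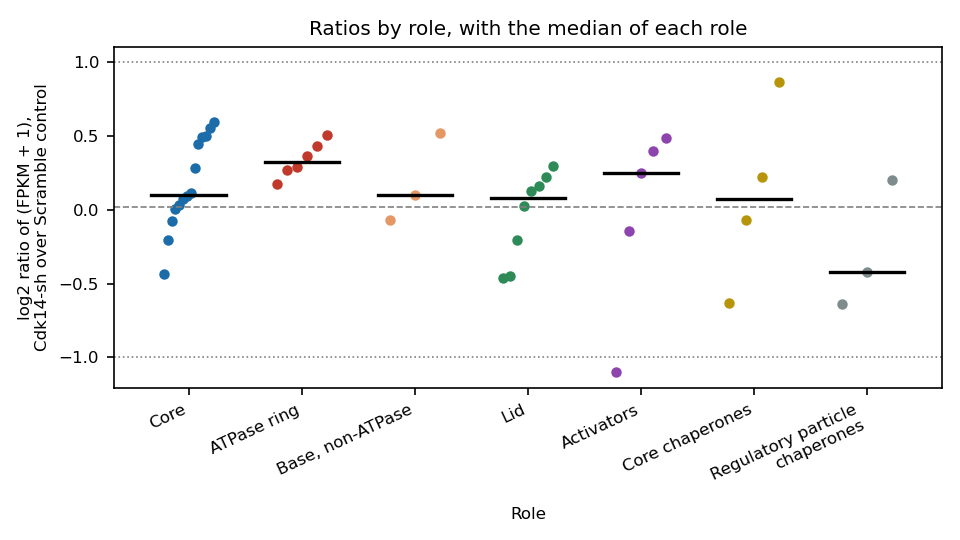
Log2 ratio of (FPKM + 1), Cdk14-sh over Scramble control, for the measured members by role (points), with the median of each role (bars). The dashed line marks the median of 12819 measured genes (0.02) and dotted lines 2-fold. The ATPase median (0.33) is the highest bar, the core (0.10) and lid (0.08) medians lie near the dashed line, and the chaperones of the regulatory particle (-0.42) lie lowest.

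The largest differences were in activators and assembly chaperones, proteins that act on the proteasome without being part of the capped core. Psme4 encodes a large activator that caps the core without ATP and is known for degrading acetylated histones in testis. It was at 23.8 FPKM in Scramble control and 10.6 in Cdk14-sh, 2.25-fold lower (2.01 to 2.52), from 2034 and 902 reads, and lies on chromosome 11 from 30771726 to 30880361. At a log2 ratio of -1.10, 11.5% of measured genes were lower still. After the correction for length and GC content the log2 ratio was -0.90, short of 2-fold. Psme3, the nuclear activator that forms rings of its own, was at 13.7 and 19.5 FPKM, 1.43-fold higher (1.19 to 1.72).

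Psme1 and Psme2 encode partners of the ring activator that interferon induces, and their genes lie close together on chromosome 14. Psme1 runs up to position 55581529 on the plus strand, and Psme2 covers 55587441 to 55591113 on the minus strand. Psme1 was at 21.8 and 19.6 FPKM, with an interval that holds 1, and Psme2 at 46.9 and 62.2 FPKM, 1.33-fold higher (1.17 to 1.51). Psme2b, a copy on chromosome 11, was at 13.4 and 16.1 FPKM. It is 99.4% identical to Psme2 over 794 bases, so the reads of Psme2 and Psme2b may have been divided between them.

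Chaperones of the core act as pairs, and one pair diverged. Psmg4 was at 25.1 and 46.5 FPKM, 1.85-fold higher (1.37 to 2.50), the highest ratio of the measured members. Psmg3, its partner in guiding the alpha ring, was at 1.82 and 0.815 FPKM, 2.23-fold lower (1.10 to 4.87), from 53.5 and 24 reads. On the log2(FPKM + 1) scale Psmg3 was at -0.63, and 9.68% of its exonic bases are shared with Gm26938. The other pair had intervals that hold 1, with Psmg1 at 13.1 and 15.5 FPKM and Psmg2 at 20.02 and 19.0 FPKM.

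Each chaperone of the regulatory particle holds a particular pair of ATPases during assembly. Psmd9, which holds Psmc3 and Psmc6, was at 3.13 and 1.65 FPKM, 1.89-fold lower (1.38 to 2.63), while those ATPases were 1.21 and 1.13-fold higher. Psmd10 (gankyrin), which holds Psmc4 and Psmc5, was at 26.3 and 19.4 FPKM, 1.36-fold lower (1.09 to 1.69), while these were 1.35 and 1.43-fold higher. Psmd5, which holds Psmc1 and Psmc2, was at 5.76 and 6.78 FPKM, with an interval that holds 1. Thus 2 of the 3 chaperones were lower. Since every ATPase was higher, a lower chaperone stands beside higher clients whichever pair it holds. Gm26745 covers 25.5% of the exonic bases of Psmd9 on the opposite strand.

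The catalytic subunits have interferon-inducible counterparts that replace them in the immunoproteasome. All 3 were higher in Cdk14-sh (51.4% of measured genes lay above 0). Psmb10, the counterpart of Psmb7, was at 3.22 FPKM in Scramble control and 10.6 in Cdk14-sh, 3.29-fold higher (2.13 to 5.22). Psmb8, the counterpart of Psmb5, was at 4.90 and 11.0 FPKM, 2.25-fold higher (1.73 to 2.95), and 14.7% of its exonic bases are shared with Gm20496. Psmb9, the counterpart of Psmb6, was at 0.0805 and 2.001 FPKM, from 3 and 74.5 reads, a ratio of 24.9 with a wide interval (4.78 to 159). Per length, the level of Psmb10 was 24.5% of that of Psmb7 in Scramble control and 80.4% in Cdk14-sh. These shares depend on the annotated exons, 1705 bases for Psmb10 and 3421 for Psmb7. In reads, Psmb10 had 56 and 184 against 458.5 and 459 for Psmb7. For Psmb8 over Psmb5 the shares were 15.3% and 22.5%, and for Psmb9 over Psmb6 they were 0.0655% and 1.15%. The constitutive gene was thus the more abundant one at each site in both libraries. Of the 4 immune markers given above, 3 moved with these genes. The list summed to 56.0 and 229.8 FPKM, most of it from Cd74 (49.0 and 175 FPKM). The remaining marker, the pan-leukocyte gene Ptprc, went the other way, at 0.482 and 0.247 FPKM. The part of immune cells in the result was not tested.

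**Figure D4:**
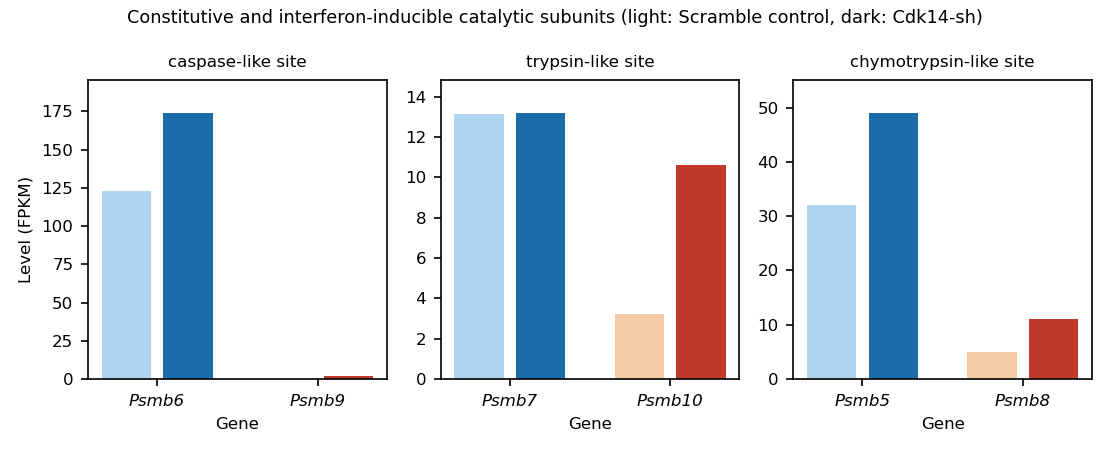
Level in FPKM (bars from 0, a separate scale for each panel) of the constitutive subunit (blue) and its interferon-inducible counterpart (orange and red) at the 3 catalytic sites, with Scramble control light and Cdk14-sh dark. Psmb10 approaches Psmb7 in Cdk14-sh per length (10.6 against 13.2 FPKM, from 184 and 459 reads), and Psmb9 stays near 0 beside Psmb6.

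Other proteasome factors outside the symbol rule were also mostly above 0. Of 12 measured genes for associated subunits, assembly factors and cofactors, 9 lay above 0 (51.4% of measured genes), with 2 past 2-fold upward (14.3%), 1 past it downward (13.5%) and a median log2 ratio of 0.51. Ube3c, a ubiquitin ligase that extends chains on the proteasome, was at 2.29 and 7.35 FPKM, 3.20-fold higher (2.57 to 3.98). The thioredoxin-like Txnl1, which binds the cap, was at 44.4 and 91.7 FPKM, 2.06-fold higher (1.94 to 2.20). The deubiquitinase Uchl5 was at 21.7 and 42.4 FPKM, 1.95-fold higher (1.70 to 2.24). Its receptor on the base, Adrm1, chosen after its values were seen, was at 27.2 and 49.3 FPKM, 1.81-fold higher (1.64 to 2.003), so that both partners were near each other in ratio. At the low end were Zfand2a, a stress-induced cofactor (14.1 and 5.42 FPKM, 2.59-fold lower, 2.04 to 3.33), the deubiquitinase Usp14 (24.5 and 23.8 FPKM) and the inhibitor Psmf1 (4.44 and 4.36 FPKM), and the intervals of the last pair hold 1.

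Regulators of proteasome genes were here the Nfe2l factors, their small Maf partners and the enzyme Ngly1 that activates Nfe2l1. Of these 7 genes, 1 lay above 0, against 51.4% of measured genes. Their median log2 ratio was -0.48, against 0.02 over measured genes. Nfe2l1 was at 27.4 FPKM in Scramble control and 14.7 in Cdk14-sh, 1.87-fold lower (1.65 to 2.11). Its small Maf partner genes Maff (49.6 and 24.4 FPKM, 2.03-fold lower, 1.78 to 2.33) and Mafk (53.8 and 35.5 FPKM, 1.52-fold lower, 1.38 to 1.67) were lower and Mafg (20.7 and 31.4 FPKM, 1.52-fold higher, 1.37 to 1.69) was higher. The antioxidant factor Nfe2l2 was at 89.1 and 74.1 FPKM, 1.20-fold lower (1.12 to 1.29), and the related Nfe2l3 at 3.90 and 3.37 FPKM, with an interval that holds 1. Nfe2l1 is mainly controlled as a protein, which was not measured.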

How the data were processed

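Per the submitters' processing notes, Bowtie 0.12.2 and featureCounts from Subread 1.5.1 were used, with the builds mm8 and GRCm38 named without a role. The authors deposited 1 table of FPKM values with a column for each library, and 15239 rows, none at 0. Rules for strand, multiply mapped reads and filters are not given in the sources used here. Each column was matched to the single sample title that its short name fits.

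Reads were recovered as value times exonic length (GENCODE M21, GRCm38) times the inferred library total. For 79.2% of 15195 genes with a length, and for 34 of the 44 members, both products were multiples of 0.5 reads (tolerance 0.01 reads). Read numbers and intervals of the other members are approximate: Psma2, Psma7, Psmb1, Psmb2, Psmb5, Psmc1, Psmc6, Psmd6, Psmg2 and Psmg4. Intervals are exact 95% binomial (Clopper-Pearson) intervals of fragments, with 2 reads taken as 1 fragment, and cover counting error only. Of rows that share a symbol the highest was used. Near-identical copies were transcripts of other genes at 95% identity over at least 300 bases (BLAST 2.17.0). They were found elsewhere in the genome for 11 members. Arithmetic was checked on simulated data. The simulated reads were drawn in pairs, so that check cannot test whether the commonest low step was 2 reads. Calculations used Python 3.11.15 with pandas 2.3.3 and scipy 1.17.1.

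The members, lists and motifs were chosen with earlier results of these data known. Every member could be named, and in each other list the 3 highest and 3 lowest log2 ratios, of which some genes are not reported here. No protein sequence was used here. Alternatives were pseudocounts of 0.1 and 5, 4 scalings, other filters and fold limits, the mean, summed symbols and subsets of members.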

Additional observations from a re-analysis of the deposited data

How the results depend on the processing

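Of 135 values of the list results under 16 alternative settings, 126 stayed inside the main value's counting interval or, for counts, within 1.5 times it. For a list, that interval runs between the medians of its members' lower and upper interval ends. For a difference of lists, the distances to those ends were combined as the root of their summed squares. It is a loose limit and not an interval of the median itself, and some settings, such as summed symbols, left the values unchanged. List results near 0 changed sign: the core minus lid difference was -0.019 for members whose mean reached 20 FPKM, and the lid median of 0.077 was -0.10 after the length and GC correction, outside its counting interval, while the lid mean was -0.036. The number of members at least 2-fold lower, 1 in the report, was 2 with a pseudocount of 0.1. It was 0 with a pseudocount of 5, at a limit of 4-fold, for core, base and lid subunits alone, for means of 20 FPKM or more and with the length and GC correction. At a limit of 1.5-fold, 3 members were lower and 2 higher. The length and GC correction turned Psmd12 to -0.049, outside its counting interval, and moved 14 other members outside theirs. Psma3 (-0.023), Psma5 (-0.060), Psma6 (-0.095) and Psmd6 (-0.15), whose intervals held 1, also fell below 0, and the cause was not tested. The ATPase median ran from 0.26 to 0.34, and the median of all members from 0.04 to 0.17. No paired analysis was possible because each group held 1 library, and leaving out a library was not possible for the same reason. Depth limits Psmg3 and Psmc3ip, whose intervals are the widest of the members.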

Other observations

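Genes that feed substrates to the proteasome were mixed. Among 6 genes for ubiquitin and its activating enzymes, 5 had a log2 ratio above 0, against 51.4% of measured genes. Their median was 0.37, against 0.02 over measured genes. Uba6, an alternative activating enzyme, was at 1.48 FPKM in Scramble control and 5.67 in Cdk14-sh, 3.83-fold higher (2.90 to 5.20). The ubiquitin fusion gene Rps27a was at 98.8 and 154 FPKM, 1.56-fold higher (1.44 to 1.69). The polyubiquitin gene Ubb was at 1469 and 1549 FPKM.

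Shuttle factors and the segregase Vcp, which extracts proteins for degradation, had 2 of 10 genes above 0, against 51.4% of measured genes. Their median log2 ratio was -0.16, against 0.02 over measured genes. None was past 2-fold, against 14.3% of measured genes upward and 13.5% downward. Ufd1l, a cofactor of Vcp, was at 25.8 and 14.7 FPKM, 1.75-fold lower (1.53 to 2.01). The ubiquilin genes Ubqln2 (11.9 and 7.35 FPKM, 1.62-fold lower, 1.29 to 2.04) and Ubqln4 (5.21 and 3.03 FPKM, 1.72-fold lower, 1.25 to 2.37) were also lower. Near 0 were Rad23b at 15.1 and 15.6 FPKM and Ubqln1 at 84.8 and 83.8 FPKM.

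Across the 43 measured members, longer genes had lower log2 ratios (Spearman's rho -0.30 between exonic length and ratio, a description across genes of the same libraries). It was -0.24 over the 31 core, base and lid subunits and -0.044 over the 12785 measured genes with a length. Over the 3281 genes that reached a mean of 20 FPKM and have a length it was -0.17.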
